A study of Mus musculus with 12 samples.

Results

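The response of host microglia to lipopolysaccharide (LPS), a component of the outer membrane of Gram-negative bacteria that is sensed by Toll-like receptor 4, was read from 6 ATACseq libraries. ATACseq marks open chromatin as the places where a transposase can insert sequencing adapters. Host microglia were the CD45.2 cells sorted from the brains of bone marrow (BM) chimeras, that is C57BL/6J wild-type mice that had been irradiated (950 cGy) and had received BM whose cells carry the CD45.1 form of the antigen. CD45.2 LPS libraries came from mice 1, 2 and 3, injected with 2.5 mg/kg LPS and killed 12 h later, and CD45.2 untreated libraries from mice 4, 5 and 6, which received no injection. All 6 mice were irradiated and transplanted, so microglia of intact brains are not part of the comparison. The labels give intervals of 3.5 or 9 months after transplantation without tying them to mice, while the paper speaks of the longer interval for challenged and unchallenged mice and of recipients aged 6 weeks at irradiation. The sample numbers 1 to 6 are used as names of mice. Whether brains were pooled is not given in the sources used here, so p-values measure the spread between these samples, which may in part be technical.

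Open regions (peaks) had been called and counted separately for untreated and LPS mice, in tables of 60288 and 54953 peaks. Peaks of both tables were paired where they overlapped reciprocally by at least 50%, which gave 39390 one-to-one pairs, 65.3% of the former and 71.7% of the latter. The 38096 pairs with more than 10 tags in at least 1 of the 6 libraries are described here. Each pair is called a peak and is placed by its untreated coordinates (build mm9). A tag is a sequenced fragment end counted as 0.5 or 1. Treatment and table go together, so an effect of LPS and an effect of counting in another table cannot be told apart. LPS peaks were wider in 78.4% of pairs, with a median of 175 bp against 143 bp, and a wider peak collects more tags.

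Microglia are the resident macrophages of the brain parenchyma. Engagement of Toll-like receptor 4 releases nuclear factor NF-kappaB and activates AP-1, a family of Fos and Jun dimers, and both bind enhancers of inflammatory genes. In resting macrophages, enhancers are held open by lineage factors such as PU.1, and C/EBP factors join in inflammation, while Sall1 and MEF2 factors are known for the resting state of microglia. Intraperitoneal LPS reaches microglia largely through circulating cytokines and other systemic signals, among them glucocorticoids released under stress.

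The 3 LPS libraries held 2966364 to 6556594.5 total tags and the 3 untreated ones 8392877.5 to 9107770. The share of tags inside a library's own peaks was 13.4% to 17.3% after LPS. It was 27.2% and 25.99% in untreated mice 5 and 6 but 9.30% in untreated mouse 4, the library that stands apart. Counts were scaled by DESeq2 size factors and are given below as normalized tags. Of 12 microglia markers all were measured, and 12 h after LPS their summed level was 1804 to 2127 normalized tags per library, against 2435 to 2645 in untreated mice, with 4 of the 12 (Sall1, Tmem119, Siglech and Fcrls) called lower. Neutrophil markers had 3 of 10 genes measured. Their sum was 39.4 to 59.4 in untreated and 55.7 to 86.0 in LPS libraries, and the defining genes Ly6g, Mpo and S100a8 had no tested peak. The sums of 5 of 10 monocyte markers (297 to 342 against 405 to 547) and of 7 of 8 border-associated macrophage markers (340.1 to 392 against 488 to 587) were higher after LPS in every library. Called higher among these were Mmp8, Vcan, F13a1, Stab1 and Cd163. Endothelial markers, 6 of 8 measured, had overlapping sums (532 to 589.5 and 519 to 579) with Flt1 and Cldn5 called higher and Kdr lower. Sums over 5 of 8 astrocyte, 5 of 8 oligodendrocyte lineage, 7 of 10 neuron and 5 of 10 lymphocyte markers overlapped as well, and Gad2 was the single gene called in these lists. The gate that the study describes for host cells took CD11b+ cells with low CD45.2 that lacked Ly6C/G, antigens of neutrophils and inflammatory monocytes. The part of such cells in the results below was not tested. In sorted bulk cells, a stronger opening in each cell and an opening in more cells cannot be told apart.

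Before the values, the sequences around the centres of the strongest openings and closings are shown. Each line gives 200 bases around the centre of an untreated peak, plus strand of mm9, with the named motif in capitals. A motif counts as held if it lies in these 200 bases, which can be outside the peak itself. Such matches are that of Tlr2, whose untreated peak ends before it at 83689346, the first of Noct, and the first and last of Eya4. The last match of Noct and those of Tmem260 and Sall1 run past the peak end. The first line is the peak of the smallest adjusted p, and the following 3 are the called-higher distal peaks of smallest adjusted p that hold the AP-1 motif TGANTCA, the CEBP motif TTGCNNAA and the NF-kappaB motif. The last pair are the called-lower distal peaks of smallest adjusted p holding the MEF2 motif and the PU.1 motif GAGGAAGT.
Tlr2, intergenic, chr3:83689160-83689359, TGANNTCA in capitals: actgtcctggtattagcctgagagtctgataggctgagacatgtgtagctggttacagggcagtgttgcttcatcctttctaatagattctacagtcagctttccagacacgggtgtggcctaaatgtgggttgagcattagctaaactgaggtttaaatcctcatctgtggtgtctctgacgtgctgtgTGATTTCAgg
Noct, intergenic, chr3:50999296-50999495, 3 matches of TGANTCA: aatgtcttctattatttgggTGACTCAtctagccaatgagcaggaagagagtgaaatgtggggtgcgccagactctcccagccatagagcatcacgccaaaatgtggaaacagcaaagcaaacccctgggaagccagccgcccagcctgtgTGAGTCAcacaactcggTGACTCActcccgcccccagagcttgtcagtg
Eya4, intron, chr10:22891421-22891620, 3 matches of TTGCNNAA on either strand: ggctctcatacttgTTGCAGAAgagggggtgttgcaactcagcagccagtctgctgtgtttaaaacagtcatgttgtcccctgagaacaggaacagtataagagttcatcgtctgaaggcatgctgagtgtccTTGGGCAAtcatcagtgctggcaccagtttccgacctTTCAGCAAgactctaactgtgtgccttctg
Tmem260, intergenic, chr14:49041743-49041942, NF-kappaB motif: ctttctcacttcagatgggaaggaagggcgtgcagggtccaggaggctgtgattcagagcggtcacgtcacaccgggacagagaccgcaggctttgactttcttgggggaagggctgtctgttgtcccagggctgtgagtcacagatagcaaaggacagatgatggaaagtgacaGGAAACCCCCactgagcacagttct
Sall1, intergenic, chr8:91916699-91916898, MEF2 motif: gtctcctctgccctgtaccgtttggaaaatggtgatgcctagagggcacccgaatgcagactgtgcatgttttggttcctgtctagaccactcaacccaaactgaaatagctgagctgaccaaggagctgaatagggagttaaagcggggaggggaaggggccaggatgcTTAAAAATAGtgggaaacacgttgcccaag
Gm5420, intergenic, chr10:21421381-21421580, GAGGAAGT in capitals: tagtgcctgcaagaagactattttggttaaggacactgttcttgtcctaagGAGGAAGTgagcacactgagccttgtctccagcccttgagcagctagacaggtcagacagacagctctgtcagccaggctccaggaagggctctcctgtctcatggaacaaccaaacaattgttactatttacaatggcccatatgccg

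Among the paired peaks of host microglia, more were called higher than lower after LPS. The 20898 untreated and 15563 LPS peaks without a pair are not covered by these counts. A peak was called if DESeq2's Wald test, adjusted after Benjamini and Hochberg, gave under 0.05 and its level differed over 2-fold. By this rule 2804 of 38096 peaks (7.36%), nearest to 2150 genes, were higher after LPS, and 1258 (3.30%), nearest to 1105 genes, were lower. The bulk of peaks (85.4%) stayed within 2-fold. The median log2 fold change was 1.61 among peaks called higher and −1.37 among those called lower. In 97 and 9 of them the lower group held at most 3 tags in every library, and at the bound that 3 tags per library allow the medians were 1.61 and −1.37. With limits of 0.01 and 4-fold, 821 peaks were higher and 87 lower. The calls went with peak width. The median ratio of LPS to untreated width was 1.44 for peaks called higher, 0.92 for those called lower and 1.22 for all tested peaks. Among the 7771 peaks whose LPS peak was 0.9 to 1.1 times as wide as the untreated one, 374 (4.81%) were called higher and 149 (1.92%) lower. Scaling to total tags, which moved the median log2 fold change of all peaks from −0.02 to −0.15, left 1236 and 326 calls, and leaving out 1 library left as few as 1895 higher and 426 lower (without untreated mouse 5).

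**Figure D1:**
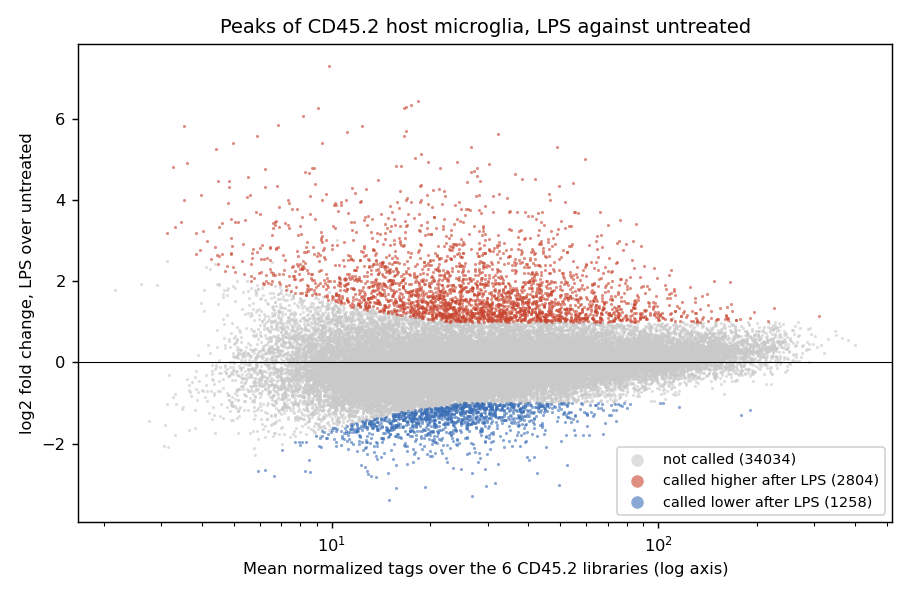
Each point is 1 of 38096 peaks in CD45.2 host microglia. The horizontal axis is the mean of normalized tags over the 6 libraries on a log axis and the vertical axis the log2 fold change of LPS over untreated. Of the coloured points, 2804 are called higher and 1258 lower by DESeq2, and the largest changes are upward.

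The deposited peak list of each single library gave another description, in which nothing was scaled. It comes from the same 6 libraries that selected the called peaks, so the shares below are no independent support for the calls. Of the peaks called higher, 179 (6.38%) overlapped a peak in all 3 LPS lists and in no untreated list, against 0.491% of all tested peaks. Of the peaks called lower, 194 (15.4%) were in all 3 untreated lists and in no LPS list, against 2.31% of all. In general, 39.4% of all tested peaks were in more untreated than LPS lists, and 6.49% in more LPS than untreated lists. The lists of untreated mice 5 and 6 held 69080 and 66795 peaks. That of untreated mouse 4, the library with most tags, held 36166, and those of LPS mice 1, 2 and 3 held 24115, 36412 and 43462. The part of depth in this was not tested.

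The opening of smallest adjusted p lay upstream of Tlr2, the gene of the Toll-like receptor for bacterial lipopeptides. At this intergenic peak, 43.7 kb upstream of the start site, untreated mice 4, 5 and 6 gave 16.5, 11.2 and 17.2 normalized tags and LPS mice 1, 2 and 3 gave 153, 152 and 161. Each LPS library was at least several times above each untreated one, with group means of 14.9 ± 3.26 and 155 ± 4.88 (SD, n = 3) and a log2 fold change of 3.41 ± 0.264 SE (adjusted p = 1.99e-33 by DESeq2). Tlr2 had 11 tested peaks, of which 5 were called higher and none lower by DESeq2. The other 4 were the promoter peak (log2 fold change 1.03) and peaks 3.4, 3.7 and 17.6 kb upstream (2.63, 2.05 and 1.04). In contrast, the tallest untreated peak of the locus, 21.6 kb upstream, had 156, 142 and 139 tags in untreated and 158, 149.5 and 122 tags in LPS mice, and these groups overlapped.

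The other openings of smallest adjusted p were also away from promoters, and some were larger in fold. A peak 29.0 kb upstream of Noct, which encodes the circadian deadenylase nocturnin, had 15.4, 12.3 and 10.5 tags in untreated and 153, 144 and 123 tags in LPS libraries (a log2 difference of 3.49 ± 0.281 SE with a DESeq2 adjusted p = 4.25e-31). In an intron of Nckap1l, which encodes a subunit of the actin-regulating WAVE complex of blood cells, 4.39, 4.26 and 6.09 tags stood against 80.4, 115 and 118 (4.42, SE 0.382, DESeq2 adjusted p = 6.87e-27). Among all tested peaks, every LPS library was above every untreated one in 19.7%, and ranking by p favours such peaks. In all 10 called-higher peaks of smallest adjusted p the lowest LPS library exceeded the highest untreated library. The remaining 7 were nearest to 1700019E08Rik, Mir5118, Osbpl8, Fmnl2, Zfp703, Actb and Tmem260, with log2 fold changes from 2.98 to 5.01, and all 10 were intergenic or intronic. The Actb peak lay 14.2 kb upstream of this gene of beta-actin, and the Osbpl8 peak 37.2 kb upstream of a gene of the oxysterol-binding protein family. Mir5118 is only the nearest annotated start, at 56.4 kb.

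The closings of smallest adjusted p came to log2 fold changes of −3.05 at most. In an intron of 2810006K23Rik, untreated mice gave 83.4, 95.4 and 89.1 tags and LPS mice 17.6, 13.9 and 15.9 (log2 fold change −2.53 ± 0.323 SE, adjusted p = 1.20e-12 by DESeq2). In an intron of Bin2, the gene of a membrane-shaping protein of leukocytes, 52.7, 61.3 and 55.9 tags stood against 0, 13.9 and 5.31 (−2.97, SE 0.447, DESeq2 adjusted p = 3.21e-09). Among all tested peaks, every LPS library was below every untreated one in 18.9%. The 3 untreated libraries again lay above the 3 LPS libraries at all 10 called-lower peaks of smallest adjusted p. The others lay near Gm5420, Nup160, Frmd4a, Mir21c, Dleu7 and Mir3074-2, with log2 fold changes from −1.76 to −3.05, and a pair in Pisd-ps3 fell by 1.29 and 1.16 on the log2 scale. Pisd-ps3 is a pseudogene whose reads may be shared with its copies, so this pair is uncertain. With counts divided by peak width, the change of the first Pisd-ps3 peak came to −0.82 and was not called.

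**Figure D2:**
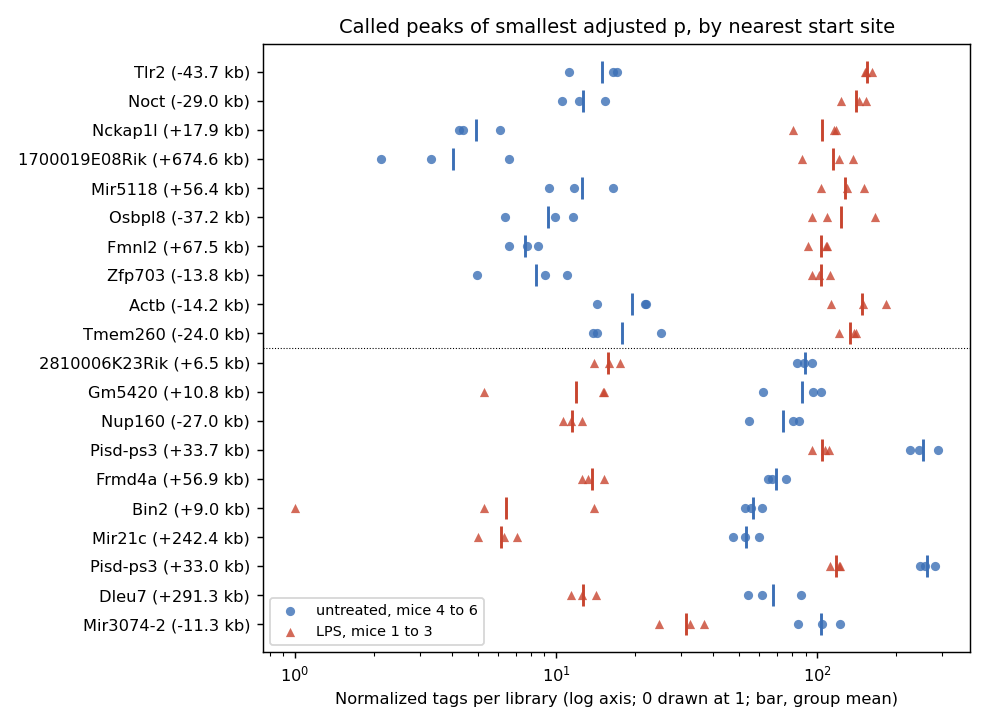
Normalized tags per library (log axis, 0 drawn at 1) at the 10 called-higher (upper) and 10 called-lower (lower) peaks of smallest DESeq2 adjusted p, with the distance to the nearest start site. Circles are untreated mice 4 to 6, triangles LPS mice 1 to 3 and bars the group means, and at none of the 20 peaks do the groups overlap. Of all tested peaks, 38.5% had groups that did not overlap.

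Called peaks lay in introns and between genes more often, and at promoters less often, than all tested peaks. Of the peaks called higher, 44.0% lay in introns, 41.4% between genes and 10.3% at promoters (Wilson 95% interval 9.27% to 11.5%). Of those called lower, 50.2%, 35.8% and 8.35% did, whereas all tested peaks were split into 35.2%, 31.0% and 28.0%. Put the other way, 2.72% of promoter peaks were called higher and 0.985% lower, against 9.20% and 4.72% of intronic peaks. The median distance to the nearest start site was 15.6 kb for peaks called higher and 18.1 kb for those called lower, against 8.11 kb for all. Of 1074 genes with a called-higher distal peak and a tested promoter, the tallest promoter peak was itself called higher in 46 (4.28%, against 2.21% of all 9488 promoters), and the median log2 fold change of these promoters was 0.12. For Klf9, a Kruppel-like factor that glucocorticoids induce, a peak 6.2 kb upstream had 9.87, 5.86 and 8.86 tags in untreated and 141, 106 and 69.0 tags in LPS libraries. Its promoter peak nearest to the start site changed by 0.91 (DESeq2 adjusted p = 2.85e-04), under the 2-fold limit.

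Distal peaks called higher carried AP-1 and CEBP motifs more often than distal peaks in general. Motifs were searched on both strands in the 200 bp around the centre of the untreated peak, in 2514 called-higher, 1153 called-lower and 27433 tested distal peaks. The AP-1 motif with a 1-base spacer, TGANTCA, was found in 35.8% of the called-higher peaks (Wilson 95% interval 33.9% to 37.7%), in 4.34% of the called-lower peaks (3.31% to 5.67%) and in 11.6% of all. With a 2-base spacer, TGANNTCA, the shares were 14.5%, 7.29% and 9.75%. The CEBP motif TTGCNNAA was found in 24.5%, 6.85% and 12.1%. In these 200 bp, 8 of the 10 called-higher peaks named above had TGANTCA and those of Tlr2 and Osbpl8 had TGANNTCA. None of the 10 called-lower ones had TGANTCA. The Tlr2 match lay past the end of its peak.

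The share of distal peaks called higher rose with the number of TGANTCA matches, from 6.66% of 24241 peaks without one to 26.1% of 2966 peaks with 1 match and 55.3% of 226 peaks with 2 or more. Of the 412 distal peaks with both TGANTCA and TTGCNNAA, 41.5% were called higher, against 5.48% of the 21337 with neither. NF-kappaB motifs were rarer and differed less, with 5.05% (4.26% to 5.98%) of called-higher, 2.60% of called-lower and 3.78% of all distal peaks. The IRF motif GAAANNGAAA, bound by interferon regulatory factors, had shares of 3.66%, 4.68% and 4.28%.

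PU.1 sites, GAGGAAGT, were more frequent in closings than in openings. They were in 15.96% of called-lower peaks (13.96% to 18.2%), 10.3% of called-higher peaks (9.17% to 11.55%) and 12.1% of all distal peaks. MEF2 motifs were in 3.47% (2.56% to 4.69%), 2.67% (2.10% to 3.37%) and 2.14%, so that the intervals of both called sets overlapped. Motifs of CTCF, the factor at the anchors of chromatin loops, were in 6.90% of all distal peaks but in 0.477% of those called higher and 1.82% of those called lower. RUNX sites (TGTGGTT) had shares of 9.23%, 7.02% and 6.70% in called-higher, called-lower and all distal peaks, and E-boxes (CACGTG) 5.33%, 4.08% and 5.40%. The STAT motif TTCCNGGAA had 0.796%, 1.04% and 0.784%. The motif of the glucocorticoid receptor was found in 13 of 2514 called-higher peaks (0.517%) in 0 of 1153 called-lower peaks (Wilson upper bound 0.332%) and in 60 of 27433 distal peaks (0.219%). The order of the TGANTCA shares was kept when distal peaks were split into 3 equal classes of GC content, with 33.1%, 37.8% and 38.4% of called-higher against 13.6%, 12.4% and 8.89% of all distal peaks from low to high GC. A match is a run of letters, not a measured binding site.

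**Figure D3:**
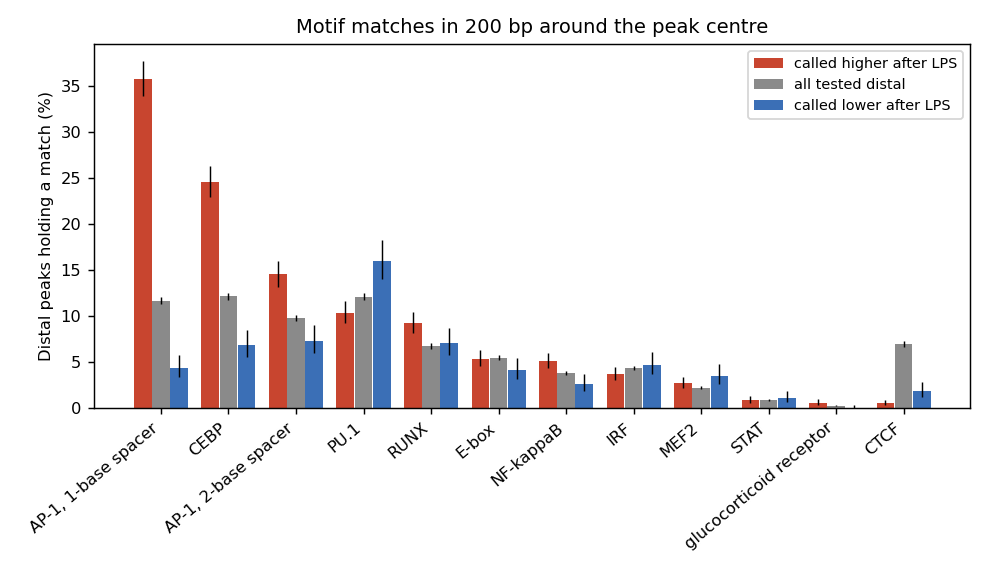
Bars give the percentage of distal (non-promoter) peaks with at least 1 match of each motif in 200 bp, for peaks called higher after LPS (red), all tested distal peaks (grey) and peaks called lower (blue), with Wilson 95% intervals. The 1-base AP-1 spacer stands at 35.8%, 11.6% and 4.34%, and CTCF is low in both called sets.

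Some genes had many called peaks. Of 217 genes with at least 3 called peaks, 110 had called peaks in the higher direction alone, 12 in the lower direction alone and 95 in both. The largest number belonged to the noncoding gene Gm17746, with 12 of 30 tested peaks called higher and none lower over 373.5 kb of chromosome 12 between the protein-coding genes Id2 and Rnf144a. Next were 1700016G22Rik (8 of 22, over 334 kb of chromosome 13 that end before Klf6) and Nfkbiz (7 of 12). Id2 encodes an inhibitor of basic helix-loop-helix factors and Klf6 a Kruppel-like factor. The 7 others by this count were Cpeb2 (6 of 13), Trps1 (6 of 15), Gm19510 (6 of 19, in a stretch that follows Trib1), Zfp608 (6 of 23), Atp2b1 (6 of 24), Tns3 (6 of 25) and Tlr2. Of these, Tns3 also had 2, and Atp2b1 and Zfp608 1 peak called lower. Among closings, Ccr6, the receptor of the chemokine CCL20, had 4 of 6 peaks called lower and Chn2, a GTPase-activating protein, 4 of 16. Ttc7 (of 10 tested), Zfp648 (8), Ube2h (10), Ppp2r1b (5), Fbxw11 (8), Dusp27 (3), B930025P03Rik (11) and E230029C05Rik (11) had 3 each. Those of Dusp27 were all of its tested peaks. Ttc7 also had 1 peak called higher and B930025P03Rik 2.

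For the genes of the inflammatory pathways, tags were summed over all tested peaks annotated to a gene in both tables, and a gene was called at a DESeq2 adjusted p under 0.05. Of 14540 genes, 1261 (8.67%) were higher and 582 (4.00%) lower after LPS, around a median log2 fold change of 0.00. Among NF-kappaB and Toll-like receptor 4 target genes, 19 of 47 measured genes were higher and none lower, with a list median of 0.23 (DESeq2). At an unadjusted p under 0.05 they numbered 21 and 3, and edgeR called 21 and 1. Nos2, the gene of inducible nitric oxide synthase, had 19.8, 14.8 and 21.1 tags in untreated and 58.2, 58.0 and 93.0 tags in LPS libraries (log2 fold change 1.96 ± 0.305 SE, adjusted p = 2.29e-08 by DESeq2). The sum over Nfkbiz, which encodes a nuclear cofactor of NF-kappaB, was 558, 448 and 514 against 1065, 902 and 788.5 (0.85, SE 0.144, DESeq2 adjusted p = 3.66e-07). Il1a, the cytokine gene of interleukin 1 alpha, had 167, 189.5 and 171 against 283, 404 and 305 (0.92, SE 0.165, DESeq2 adjusted p = 2.69e-06). LPS libraries were above untreated ones in each of these and in Tlr2 (0.92). The Il1a gain came from peaks 10.2 and 28.5 kb upstream (1.46 and 1.78), while its promoter peak had 20.3 ± 5.34 against 24.1 ± 2.20 tags (mean and SD, n = 3) and was not called. With a reciprocal overlap of 80% fewer peaks entered, and the sums of Il1a and Tnfaip3 changed by −0.42 and −0.023.

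The rest of the 19 were Clec4e, Irak3, Cxcl10, Relb, Ptgs2, Tnfaip3, Cd14, Ebi3, Bcl3, Tnf, Cxcl2, Ccl3, Tnfaip2, Birc3 and Nfkbia. Their log2 fold changes ran from 0.35 (Nfkbia) to 1.19 (Ptgs2), apart from Clec4e, a C-type lectin receptor gene whose single peak had 1.1, 1.64 and 1.14 normalized tags in untreated and 15.2, 11.35 and 21.05 in LPS libraries. Several of them, among them Nfkbia, Tnfaip3, Irak3 and Bcl3, encode brakes of the pathway. In the Tnf locus, an intronic peak of Tnf gained (25.2, 28.2 and 31.6 against 62.8, 79.8 and 69.0 tags, log2 fold change 1.31), whereas the promoter peak had 43.9, 38.4 and 40.4 against 40.2, 49.4 and 46.0 tags. Of 199 peaks of the list, 36 were called higher and 3 lower. With counts per width the list had 15 genes higher, with peaks of similar width 8 of 29, without untreated mouse 5 it had 9, and scaled to total tags 2, where the median of all genes was −0.11 and that of the list 0.12.

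Genes of signalling feedback, immediate early factors and glucocorticoid response each held 5 genes called higher, to be read against the 8.67% of all genes. In the feedback list, 5 of 27 were higher and 1 lower (median 0.19). They were Dusp2, a phosphatase gene of MAP kinases (122, 128 and 126 against 223, 235 and 326 tags, log2 fold change 1.08), Il1rn, the interleukin 1 receptor antagonist (1.67), Spry2 (1.82), Otud7b (0.76) and Dusp6 (0.49). At Otud7b the groups overlapped, with 50.6, 42.7 and 47.3 tags in untreated and 45.5, 88.3 and 93.0 tags in LPS libraries. Pias1 fell by 0.67 on the log2 scale. In the AP-1 and immediate early list, 5 of 24 were higher and none lower (median 0.02, 6 and 3 at an unadjusted p under 0.05, 6 and 0 with edgeR), and the members of that list that rose included a single AP-1 subunit gene, Jun (0.45). Zfp36, whose product tristetraprolin destabilizes cytokine mRNAs, had 46.2, 43.3 and 43.3 against 129, 137.5 and 149 tags (1.67, SE 0.208, DESeq2 adjusted p = 5.60e-13), and the others were Nr4a3, Ier3 and Nr4a2 (0.71 to 0.79). Of 20 genes that respond to glucocorticoids, 5 were higher and none lower (median 0.21, 7 and 1 at an unadjusted p under 0.05, 5 and 1 with edgeR), namely Klf9 (1.07), the metallothionein genes Mt2 (1.30) and Mt1 (0.47), Hif3a (1.08) and Zbtb16 (0.74). At 80% overlap, Mt2 changed by −0.48.

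Single peaks of these lists were called higher and lower in 17 and 5 of 140 (feedback), 7 and 8 of 153 (AP-1 and immediate early) and 6 and 1 of 82 (glucocorticoid), against 7.36% and 3.30% of all peaks. The peaks of the AP-1 and immediate early list were thus called lower at least as often as higher. Leaving out untreated mouse 5 left 2, 3 and 3 genes higher, untreated mouse 6 left 3, 2 and 3, and LPS mouse 2 left 3 in each. Scaling to total tags left 0, 1 and 0, and 80% overlap 4, 1 and 1.

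Interferon-stimulated genes were called about as often as genes in general. Of 34 measured genes, Rsad2 (0.88) and Gbp5 (0.65), both linked to antiviral defence, were higher and none lower by DESeq2 (5.88% higher, against 8.67% of all genes, median 0.21), and at an unadjusted p under 0.05 the list had 5 higher and 2 lower. With edgeR, 5 were higher and 2 lower, and at 80% overlap Gbp5 changed by −0.12. Ribosomal protein genes, whose promoters are open in every cell, had a median of −0.04 with Rpl28 (0.54) the one call among 40.

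Of 39 measured homeostatic microglia genes, 9 were lower and 2 higher, against 4.00% and 8.67% of all genes, with a list median of −0.21. Sall1, the transcription factor gene typical of microglia, had a summed level of 549, 626.5 and 556 in untreated and 354, 391 and 310 in LPS libraries (log2 fold change −0.72 ± 0.142 SE, adjusted p = 2.05e-05 by DESeq2). Tmem119, a surface protein gene used as a microglia marker, had 139, 170.3 and 165 against 58.2, 95.9 and 81.6 tags (−0.97, SE 0.204, DESeq2 adjusted p = 8.21e-05). All 3 LPS libraries were under all 3 untreated ones at both genes. The others called lower were Siglech, Crybb1, Fcrls, Selplg, Ltc4s, Slco2b1 and P2ry13 (−0.43 to −0.78), and those called higher were Rhob (0.66) and Klf12 (0.50, but −0.30 over peaks of similar width). The distal peak of Sall1 shown above, 349 kb from the gene, had 98.7, 99.7 and 76.4 against 15.1, 40.5 and 21.2 tags (−1.78, DESeq2 adjusted p = 2.10e-07). Of the 11 tested peaks of Sall1, 1 was called lower and 1 was called higher. At Tmem119, a peak 13.2 kb from the start had 57.0, 77.3 and 63.1 against 10.1, 21.5 and 7.96 tags (−2.33, DESeq2 adjusted p = 2.59e-08), while the promoter peak (−0.70) was not called.

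Single peaks of the homeostatic list went both ways, 25 of 280 called higher and 22 lower, against 7.36% and 3.30% of all peaks. Leaving out untreated mouse 5 left 3 genes lower and leaving out LPS mouse 2 or untreated mouse 6 left 4, while 7 remained by count without untreated mouse 4. Scaled to total tags none was called and the list median was −0.31, and with counts per width 5 were lower.

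Antigen presentation genes were lower in 4 of 16 cases (against 4.00% of all genes) and higher in 1, with a median of −0.33. Of 46 single peaks of the list, however, 3 were called higher and 0 lower by DESeq2's test with the 2-fold limit. H2-Ab1, H2-Aa and H2-Eb1, which encode chains of MHC class II, changed by −0.61, −0.61 and −0.80, and Psmb9, a subunit of the immunoproteasome, had 45.8 ± 1.31 against 19.9 ± 3.04 tags (mean and SD, n = 3, −1.23, DESeq2 adjusted p = 3.93e-03). The gene called higher was Cd86 (0.46), a costimulatory ligand. None of the 4 calls of lower level was made with counts per width, nor without untreated mouse 5 or mouse 6. Genes known from disease-associated microglia went both ways, with Cst7, Lgals3 and Cd44 higher (1.04, 0.72 and 0.41) and Ctsd, Csf1 and Spp1 lower (−0.78, −0.74 and −0.96) among 20 measured, against 8.67% and 4.00% of all genes. Counts per width, or leaving out LPS mouse 2 or untreated mouse 4, left 1 higher and 1 lower, and total tags left none. Cst7, a cystatin gene, gained at its promoter (41.7, 35.7 and 31.6 against 128, 84.9 and 92.9 tags), and Ctsd, the gene of cathepsin D, lost most at an intronic peak (58.1, 69.3 and 56.5 against 27.6, 8.87 and 15.9 tags).

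**Figure D4:**
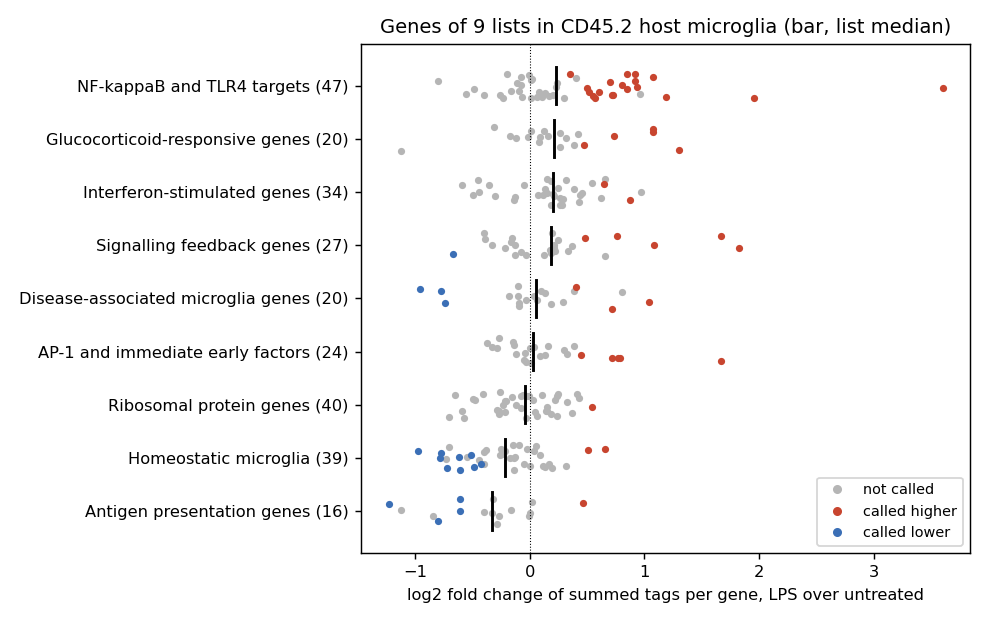
Each point is a measured gene of 1 of 9 lists (number in brackets), placed by the log2 fold change of its summed tags, LPS over untreated, in CD45.2 host microglia. Red points are called higher and blue points lower by DESeq2, bars are list medians and the dotted line is the median of all 14540 genes. Calls lie to the right in the NF-kappaB list (19 of 47) and mostly to the left in the homeostatic list (9 of 39 lower, 2 higher).

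A further list held 18 of the genes that the study names for these and related samples, so their counts are no independent evidence of a direction. Tlr2, Tnf, Tnfaip3 and Klf12 were called higher, Sall1, H2-Ab1 and Spp1 lower, and 11 were not called. Among the latter, the sum over Cx3cr1, the fractalkine receptor gene, was 225.5, 282 and 233 against 223, 272 and 222, yet its promoter peak fell by 1.02 on the log2 scale (74.6, 82.1 and 75.3 against 45.21, 38.0 and 34.5 tags) and a peak in its 3′ untranslated region rose by 1.96. Trem2, a lipid-sensing receptor gene, had a promoter peak called higher (1.08) and a peak 9.4 kb upstream called lower (−1.04), with a summed change of −0.26. Both sums thus held peaks that moved in opposite directions. Marco, a scavenger receptor gene, had 6 untreated and 7 LPS peaks of which 4 were paired and tested, and their sum did not differ beyond the spread (121, 136 and 139 against 124, 119.8 and 135). Unpaired peaks are not covered. Apoe, Ms4a7, Ccl5, Dbi, Gpr65 and Il12b had summed changes between −0.26 and 0.42 with adjusted p of at least 0.206, and Aif1 and Upk1b had −0.71 and −0.73 with adjusted p of 0.0701 and 0.189 (DESeq2).

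Grafted CD45.1 cells, whose libraries carry the same sample numbers 1 to 6, give the scale for what is particular to the host. The libraries are separate, but treatment and peak tables are shared, and so may be the mice. At the 2804 peaks called higher in CD45.2 the median CD45.1 change was 1.22, and 98.0% had the same sign, while at the 1258 called lower it was −1.09 and 97.5%. Past the same limits in the same direction in CD45.1 were 59.7% of the former and 49.6% of the latter. Over all 38096 tested peaks, 2553 were past these limits in CD45.1 in the higher and 1834 in the lower direction. Of peaks past these limits in CD45.1, 65.6% of the higher and 34.0% of the lower ones were called in CD45.2. The same-sign share over all tested peaks is not given here, and the part of the shared tables in it was not tested. The test of the difference itself, the interaction of population and LPS over 12 libraries, found 102 peaks at a DESeq2 adjusted p under 0.05. In 94 of them (0.247% of tested peaks) the CD45.2 change was above the CD45.1 change, and in 8 (0.0210%) below it. Without the CD45.2 library of untreated mouse 5 the interaction had 45 peaks, and with the sample number as a replicate block 52, of which 51 had a larger CD45.2 change and 1 a smaller one.

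At these 94 peaks, nearest to 89 genes, the populations lay further apart at rest than after LPS in the median. The median over peaks of the group mean was 9.02 normalized tags in CD45.2 untreated, 57.2 in CD45.2 LPS, 50.1 in CD45.1 untreated and 72.1 in CD45.1 LPS. At all 94, every untreated CD45.1 library was above every untreated CD45.2 library, and after LPS the libraries of both populations overlapped at 54, while CD45.1 was above at 37 and CD45.2 at 3. A low untreated CD45.2 level also favours selection by this test, so the values at rest describe the chosen peaks and support nothing further. The median log2 fold changes were 2.52 in CD45.2 and 0.51 in CD45.1, and 24 of the 94 were past the same limits in CD45.1.

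The examples were chosen after their values were seen, as the 9 of smallest interaction p. At a peak 9.1 kb from Dppa3, a gene known from germ cells and early embryos, CD45.2 libraries had 6.50, 4.73 and 8.23 tags untreated and 59.9, 55.4 and 72.5 after LPS, and CD45.1 libraries 49.5, 57.3 and 71.4 untreated and 76.5, 73.9 and 83.0 after LPS (interaction DESeq2 adjusted p = 1.15e-07). In both populations each LPS library was above each untreated one, although the CD45.1 change was not called, and each CD45.2 LPS library stayed under each CD45.1 LPS library. After LPS the populations overlapped at the promoter of Lilrb4a, an inhibitory receptor gene, with 12.99, 12.6 and 10.97 against 79.8, 68.0 and 51.6 tags in CD45.2 and 53.9, 59.2 and 58.4 against 58.8, 71.9 and 80.2 in CD45.1. At the leading Tlr2 peak, CD45.1 rose too, from 68.3, 56.1 and 119 to 221, 259 and 196 tags, and stayed above CD45.2 after LPS. The peak 3.7 kb upstream of Tlr2 and a peak 23.1 kb from Nfkbiz were also among the 94, as were those of Mir5118 and Osbpl8 named above. Of the 86 distal peaks among the 94, 45.3% held the CEBP motif and 34.9% TGANTCA, against 24.5% and 35.8% of all called-higher distal peaks.

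**Figure D5:**
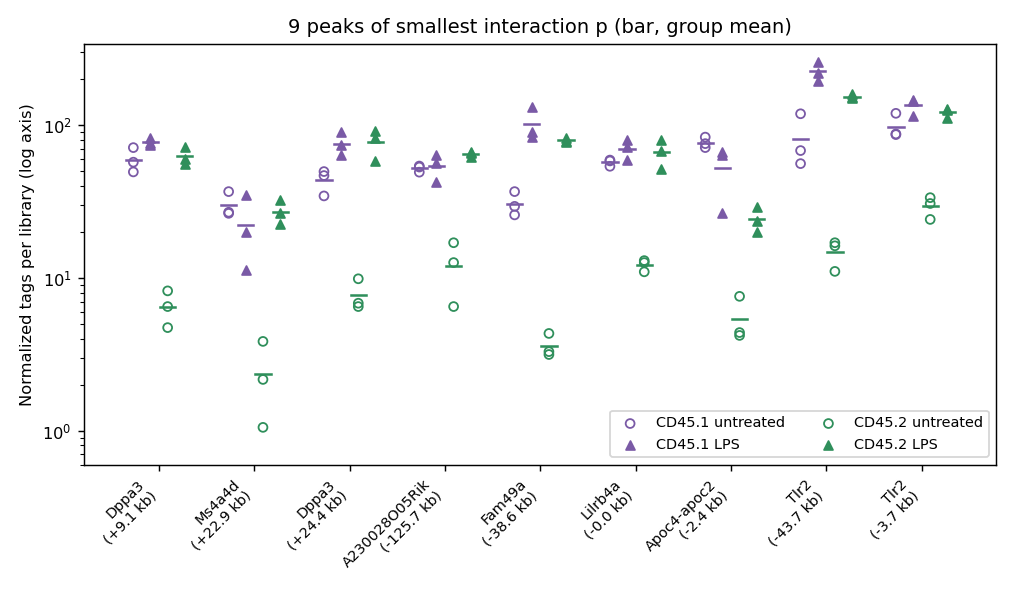
Normalized tags per library (log axis, scaled over all 12 libraries) at the 9 peaks of smallest interaction p, with the distance to the nearest start site. Open circles are untreated and filled triangles LPS libraries, purple is CD45.1 and green CD45.2, and bars are group means. Untreated CD45.2 libraries lie under all other libraries at each of the 9 peaks.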

How the data were processed

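The authors sequenced sorted CD45.1 and CD45.2 cells by ATACseq and deposited peak lists and merged tables on mm9. Their notes name bcl2fastq 2.17.1.14, Bowtie2, Picard 1.108 and HOMER. Values of the merged tables are estimated counts, made by the authors as raw tags per merged peak with each mate counted as 0.5, and they were rounded here. The deposited single-library lists hold HOMER's normalized signal, and only their peak positions were used. Tables of untreated and LPS mice were paired with bedtools 2.31.1 at 50% reciprocal overlap. Pairs with a count over 10 in 1 of 6 libraries were fitted with DESeq2 1.42.0, and the interaction in all 12 libraries. edgeR 4.0.16 served as the alternative. In simulated data of 38096 peaks for this comparison, DESeq2 recovered 79% of 4-fold and 23% of 2-fold changes. Recovery there meant an adjusted p under 0.05 in the right direction, without the 2-fold limit used for the calls. Named peaks were the 10 of smallest adjusted p per direction. Named genes were the 10 with most called peaks per direction, the 4 of smallest adjusted p per list and direction and 18 loci that the study names, and further called list members are given without a rule. Members and lists were chosen with earlier results of these data known. Items withheld for evaluation are not reported here. Intervals cover counting error only.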

Additional observations from a re-analysis of the deposited data

Results flagged for a closer look

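The following peaks were singled out because the change after LPS differed between CD45.1 and CD45.2 cells by the interaction term of DESeq2. Values are the log2 fold change in CD45.1 minus that in CD45.2, so that a negative value means a larger rise in host microglia. Among the named peaks, the difference was −1.93 at the Tlr2 peak 43.7 kb upstream, −1.76 at Mir5118 and −1.48 at Osbpl8. Among the 9 peaks of smallest interaction p, it was −2.90 and −2.47 at Dppa3, −4.05 at Ms4a4d, −2.27 at A230028O05Rik, −2.81 at Fam49a and −2.12 at the Lilrb4a promoter. In the same set it was −2.85 at Apoc4-apoc2 and −1.60 at the Tlr2 peak 3.7 kb upstream. At the Nfkbiz peak 23.1 kb from the start site it was −1.39.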

How the results depend on the processing

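For LPS against untreated in CD45.2, no paired analysis was possible because samples 1 to 3 and 4 to 6 share no number. For the interaction, the sample number as a replicate block, added after seeing the data, gave 52 peaks, 51 of them among the 102, and the 9 named peaks of smallest interaction p kept their call. Deviations of same-numbered CD45.1 and CD45.2 libraries from their group means correlated between −0.15 and 0.11 over peaks. In untreated libraries, same-numbered pairs had 0.066 to 0.11 and other pairs −0.12 to −0.0061. After LPS, same-numbered pairs had −0.15 to 0.043 and other pairs −0.14 to 0.10. The labels do not say that a number marks 1 mouse. Of 2804 peaks called higher and 1258 lower, scaling to total tags left 1236 and 326, 80% reciprocal overlap 641 and 257, thinning to equal depth 1279 and 278, and stricter limits 821 and 87. A mean count of at least 20 gave 1815 higher, counts per width 758 lower and edgeR 1988 lower. Pairs of similar width, chosen after seeing the data, gave 374 and 149 of 7771. Of 1261 genes higher and 582 lower, total tags left 107 and 14, 80% overlap 513 and 201, thinning 505 and 120 and similar width 378 and 131, and edgeR had 1182 lower. Leaving out 1 library gave 1895 to 2562 and 426 to 1024 peaks, 522 to 1178 and 109 to 456 genes, and 45 to 110 interaction peaks. The lowest of each came without untreated mouse 5. Fewer peaks entered at 80% overlap, similar width and a mean count of at least 20, fewer samples with a library left out and fewer tags with thinning, and for the other settings the cause was not tested. Within 1 kb of a start site lay 14.5% of peaks called higher and 11.4% of those called lower. In the whole untreated peak, TGANTCA was in 31.0% and the NF-kappaB motif in 4.26% of called-higher distal peaks.

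Of the named peaks, a Pisd-ps3 peak (counts per width) and the Bin2 peak (thinned) lost their call. Named gene sums changed sign as follows, none with an adjusted p under 0.05. At 80% overlap Apoe gave 0.82, Gbp5 −0.12, Gpr65 −0.47, Il1a −0.42, Marco 0.36, Ms4a7 0.96, Mt2 −0.48, Tnfaip3 −0.023 and Tns3 −0.20. At similar width Atp2b1 gave −0.56, Ccl5 −0.21, Fbxw11 0.21, Il12b 0.65 and Klf12 −0.30. Thinned, Cx3cr1 gave 0.081 and Ms4a7 0.21. Gpr65 gave −0.066 with total tags, −0.069 with counts per width and −0.034 at a mean count of at least 20, where Gbp5 gave −0.0039. Apoe gave 0.0086 with the GC correction and Ms4a7 0.088 with no filter. With 1 library left out Apoe ranged from −0.072 to 0.031, Cx3cr1 from −0.15 to 0.064, Ms4a7 from −0.43 to 0.069 and Gpr65 from −0.058 to 0.15. The 3 LPS libraries had medians of 11 to 31 tags per peak, which limits calls at low peaks.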
